A study of Mus musculus with 12 samples.

Results

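Ighj4 is the last of the 4 joining (J) segments of the mouse immunoglobulin heavy chain locus and lies next to the constant region genes. Its rearrangements were taken from tables of translated heavy chain sequences of splenic B cells. A translation was a member when it held no stop, had 2 tyrosines or phenylalanines followed by the conserved VH cysteine at residue 16 to 30, and after it carried the residues WGQGTSV, the start of framework 4 that Ighj4 encodes. The CDR3 was the stretch between that cysteine and the tryptophan of the motif, with both anchors left out. By this rule 161659 translations, carrying 460649 reads, were Ighj4 rearrangements. They came from 543334 translations (1667197 reads) with 1 of the 4 J motifs and from 585156 translations without a stop. The framework went on as WGQGTSVTVSS in 97.8% to 99.3% of the Ighj4 translations of a library.

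The mice were female *MRL-lpr* mice of 14 weeks, an SLE-prone strain homozygous for the *Fas* lymphoproliferation mutation, and all 12 carried it. In 6 of them control SMO was given by minipump, and in the other 6 LFPRLR SMO, a splice-modulating oligomer that knocks down the long form of the prolactin receptor (LFPRLR). B cells were enriched from spleen, and 1 amplicon library per mouse ran from J558 VH to the Cμ constant region, so class-switched heavy chains and other VH families were outside the measurement. The comparison asks whether the Ighj4 repertoire differed between the treatments. Amplicons carry no transcripts other than the heavy chain, so the B-cell label could not be checked against marker genes.

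In control SMO libraries the number of Ighj4 translations ran from 8913 to 22808 with a median of 16180. In LFPRLR SMO libraries it ran from 140 to 15281 with a median of 12816. LFPRLR SMO replicate 6 held those 140 translations (151 reads), and the next smallest library of its group held 10855. No molecular identifiers were described, so neither reads nor translations are independent molecules, and intervals on shares cover counting error only. Libraries fell into 2 sets by a second version of the Cμ end, which made up 33.1% to 40.1% of the sequences of control SMO replicates 4, 7 and 9 and LFPRLR SMO replicates 3, 4 and 7, and at most 2.26% of those of the remaining 6 (control SMO replicates 3, 5 and 8 and LFPRLR SMO replicates 5, 6 and 8). Some libraries of the same group shared abundant Ighj4 CDR3s. Of the 50 commonest, 38 were shared by control SMO replicates 4 and 8, 36 by control SMO replicates 5 and 7, and 29 by LFPRLR SMO replicates 4 and 5. LFPRLR SMO replicates 3 and 4 shared 13, and stayed apart where pairs were averaged. Between groups the largest overlaps were 10 and 9 of 50, of LFPRLR SMO replicate 6 with control SMO replicates 4 and 8. That library held 138 distinct Ighj4 CDR3s in 151 reads, so most of its 50 were read once and cannot be called abundant. Without it, the largest overlap between groups was 2 of 50. The sample titles give the libraries that share CDR3s as separate mice. Whether they are was not tested, and if a pair came from the same mouse the groups would hold fewer than 6 mice each and the counts of libraries below would overstate sharing between mice. Results are therefore also given within the sets, with those pairs averaged, or without a library where this changed them.

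During B-cell development the RAG recombinase joins a D segment to a J segment and then a VH segment to that DJ unit. Exonucleases can trim the cut ends and terminal transferase can add untemplated bases, so the CDR3 of each B cell records how much of the J segment was left. Ighj4 has a long coding end ahead of its tryptophan codon, read as tyrosine-tyrosine-alanine-methionine-aspartate-tyrosine. In a repertoire, Ighj4 CDR3s are known by their endings in YAMDY or AMDY.

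The reference tables used here held no germline J sequence, so the Ighj4 end was read as the consensus of the nucleotide sequences with the Ighj4 motif. It is shown first because every count of kept residues below is made against it. Capitals mark the 18 bases ahead of the tryptophan codon against which kept residues and bases were counted. Bases further ahead were not compared, so a match over all 18 does not show an uncut end. The 34 bases in lower case are framework 4, which 96.0% of those sequences carried without a change.
Ighj4 end: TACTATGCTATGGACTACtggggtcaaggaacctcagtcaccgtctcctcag

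Kept J residues were counted backwards from the tryptophan as the longest unbroken match to YYAMDY. To show what trimming looks like, the next lines give 1 CDR3 for each number of kept residues, the one under 15 residues that was found in most libraries, in its commonest nucleotide version. Capitals mark the bases that match the Ighj4 end without a break.
ARSNYYAMDY, 6 kept residues, 12 libraries: gcaagatccaatTACTATGCTATGGACTAC
ASYYDGSYAMDY, 5 kept residues, 12 libraries: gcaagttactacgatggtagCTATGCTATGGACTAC
AIDLLLRWNAMDY, 4 kept residues, 12 libraries: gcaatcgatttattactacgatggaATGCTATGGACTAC
ARGMDY, 3 kept residues, 11 libraries: gcaagagggATGGACTAC
ARGDY, 2 kept residues, 11 libraries: gcaagaggGGACTAC
ARGGFAY, 1 kept residue, 11 libraries: gcaagaggggggtttgctTAC
TRRF, 0 kept residues, 6 libraries: acaagaaggttC
The line with 1 kept residue ends in FAY, which is the end that Ighj3 (WFAY) encodes, although the framework after it is that of Ighj4. A base added at the joint can match the Ighj4 end by chance. A count of kept residues is therefore an upper bound of what was left of the 6 when no later mutation broke the match.

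Most Ighj4 rearrangements had lost little of the segment. Over 12 libraries the mean number of kept residues, with each translation counted once (by sequences), had a median of 4.39 of 6. By sequences, 5 kept residues was the commonest state, at 31.7% in the median control SMO library and 32.9% in the median LFPRLR SMO library. Then followed 4 kept residues (26.1% and 25.9%) and all 6 (23.0% and 20.6%). CDR3s that had lost the methionine, with 2 or fewer residues kept, were the minority: 8.03% and 7.70% kept 2, 2.40% and 2.56% kept 1, and 1.01% and 1.51% kept none.

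At the level of bases, a match over all 18 counted bases was the commonest state. Its median was 21.6% of the Ighj4 nucleotide sequences of a library. It was followed by 16 bases (16.1%), 12 bases (11.6%), 14 bases (9.85%) and 17 bases (9.43%). Shorter remnants were rare, and the commonest state below 9 bases was 6 bases at 3.85%.

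**Figure D1:**
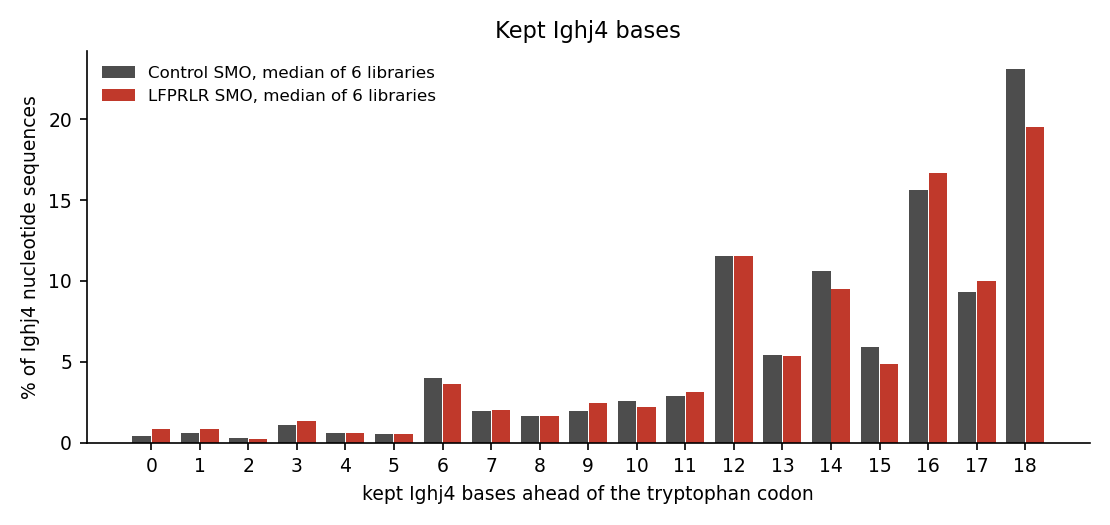
Share of Ighj4 nucleotide sequences (y axis, percent, each sequence counted once) by the number of unbroken Ighj4 bases ahead of the tryptophan codon (x axis, 0 to 18 bases), with bars for the median of 6 control SMO and 6 LFPRLR SMO libraries. The tallest bar stands at 18 bases, where the count stopped, in both groups (23.1% and 19.5%), and 16 and 12 bases follow.

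Counted by sequences, the mean number of kept residues did not separate the groups. In control SMO libraries it was 4.33 at the lowest, 4.43 at the median and 4.499 at the highest, and in LFPRLR SMO libraries 4.24, 4.38 and 4.53. The highest LFPRLR SMO value was that of replicate 6 with its 140 translations, and the groups overlapped. The difference in medians was -0.05 residues (two-sided exact Mann–Whitney *U* test, p = 0.485, adjusted over the 4 J segments 0.589), and the interval of the shift (95.9% coverage) ran from -0.181 to 0.0637.

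Counted by reads, each LFPRLR SMO library lay below the control SMO median, but the difference missed the threshold after adjustment. Control SMO replicates 3, 4, 5, 7, 8 and 9 kept a mean of 4.515, 4.505, 4.625, 4.489, 4.623 and 4.401 residues per read. LFPRLR SMO replicates 3 to 8 kept 4.397, 4.141, 4.333, 4.490, 4.472 and 4.395. Control SMO replicate 9 lay among the LFPRLR SMO libraries and LFPRLR SMO replicate 6 among the control SMO libraries. The medians of 4.51 and 4.40 differed by -0.11 residues (interval of the shift -0.292 to -0.0145, exact *U* test p = 0.0152, adjusted p = 0.0606). The difference was -0.228 in the set with little of the second Cμ end and -0.0912 in the other set, where 3 libraries against 3 cannot reach an exact p under 0.1 (exact p of 0.1 and 0.2). Both were of the same sign, and with labels permuted within the sets the difference of -0.16 passed (exact p = 0.015, adjusted p = 0.03). Since each averaged pair spans the sets, neither is independent support if a pair came from the same mouse. With the 10 commonest Ighj4 CDR3s of each library left out, chosen after the data were seen, it was -0.0784 (exact p = 0.31).

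Among the levels, that of 6 kept residues had the smallest p. By reads, CDR3s with all 6 residues made up 20.3% to 29.97% of control SMO Ighj4 reads (median 24.3%) and 15.02% to 21.8% of LFPRLR SMO reads (median 18.8%). The groups overlapped between 20.3% and 21.8%, and the control SMO median lay above 6 of 6 LFPRLR SMO libraries (exact *U* test, p = 0.00866, adjusted over 24 levels of the 4 J segments 0.208). By sequences the medians were 23.0% and 20.6% (exact p = 0.026, adjusted p = 0.312), and again 6 of 6 lay below the control SMO median. Of the 7 levels of Ighj4, 0 passed after adjustment and 1, that of 6 kept residues, had an unadjusted p under 0.05, by sequences and by reads. By reads, 3 kept residues had medians of 7.52% and 9.56% (exact p = 0.24) and none kept 0.911% and 1.58% (exact p = 0.394). In bases, the mean kept end by sequences was 13.99 against 13.8, control SMO first, (exact p = 0.394) and 14.2 and 13.8 by reads (exact p = 0.0649).

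**Figure D2:**
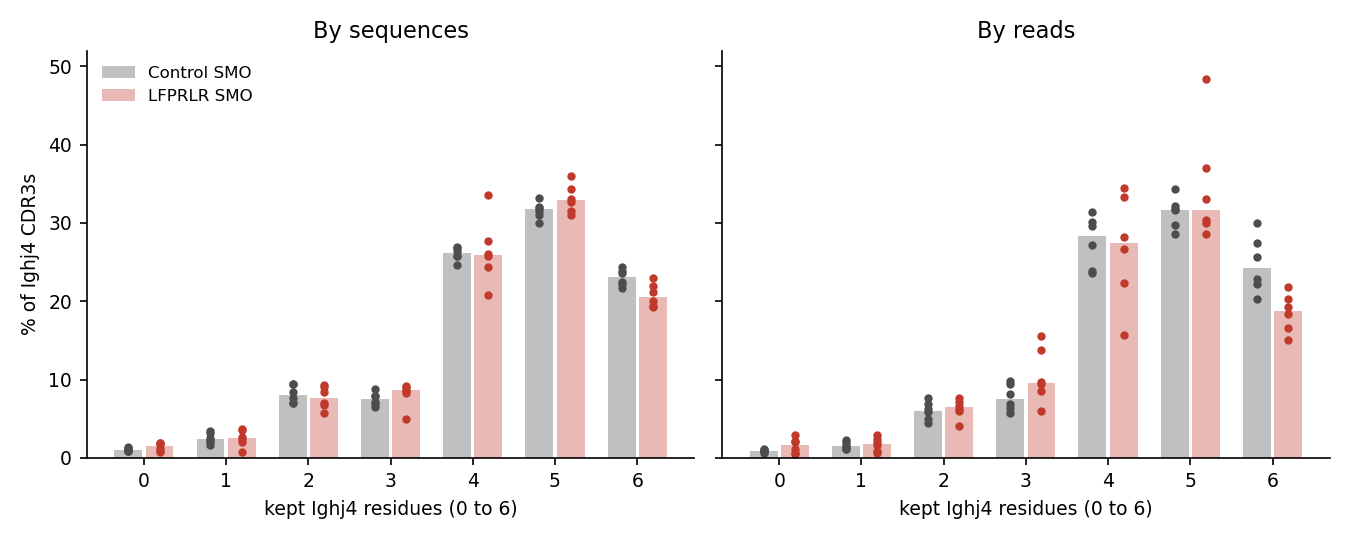
Share of Ighj4 CDR3s (y axis, percent) at each number of kept Ighj4 residues (x axis, 0 to 6), by sequences on the left and by reads on the right, with bars at group medians and 1 point per library. The libraries sit close together by sequences, and by reads the single high point at 5 kept residues (48.4%) is LFPRLR SMO replicate 3.

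Some CDR3s followed by the Ighj4 framework ended as another J segment does. By sequences, a median of 2.70% of the Ighj4 CDR3s of a library (range 1.43% to 3.15%) ended in FDY, the end of Ighj2 (YFDY), 0.725% ended in FAY as Ighj3 does, and 0.0679% in FDV as Ighj1 (YWYFDV) does. FDY ends were 33.1% of the CDR3s counted with 2 kept residues, and FAY ends 30.4% of those with 1. In 11 libraries, a median of 80.1% of the translations ending in FDY (76.4% to 85.9%) had a CDR3 that the same library also held with the Ighj2 framework. For FAY ends and Ighj3 it was 79.8%, and for Ighj4 CDR3s ending in AMDY, 27.7% were also held with another J framework.

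Ends of this kind were also found with the other frameworks, and made up a smaller share by reads. MDY, the end of Ighj4, closed a median of 5.35% of the translations with the Ighj2 motif, 2.27% of those with the Ighj3 motif and 0.325% of those with the Ighj1 motif. By reads, FDY ends made up 1.48% of Ighj4 and MDY ends 2.95% of Ighj2. Of the Ighj4 translations with such ends, 73.7% were read once, against 63.9% of the rest. The groups did not separate in these ends (all 3 ends together at a median of 3.73% under control SMO and 3.20% under LFPRLR SMO, exact *U* test, p = 0.485). Without them, chosen after the data were seen, the mean kept residues by reads were 4.56 and 4.44 (difference of -0.12, exact p = 0.00866, adjusted p = 0.0346), which passed the threshold that the full set missed. Whether these ends arose in the mice or in the amplification was not tested.

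The use of Ighj4 did not separate the groups. By sequences, its share of the translations with a J motif was 27.9% at the lowest, 29.8% at the median and 34.3% at the highest in control SMO libraries, and 25.6%, 28.7% and 32.6% in LFPRLR SMO libraries. The difference was -1.16 percentage points (interval of the shift -5.30 to 2.34, exact *U* test, p = 0.699, adjusted p = 0.932). By reads, control SMO libraries ran from 22.3% to 33.6% and LFPRLR SMO libraries from 26.2% to 28.1%, with medians of 27.36% and 27.41% (exact p = 1, interval -5.54 to 4.98). The control SMO libraries were spread wider by reads (SD 4.34 against 0.724, n = 6 each), and this difference in spread was not tested. Among the other segments, Ighj3 was closest to Ighj4 in use, with a mean absolute difference of 2.72 percentage points over the 12 libraries, against 4.09 for Ighj2 and 20.3 for Ighj1. In order of median use the segments were Ighj2 (32.7%), Ighj3 (29.1%), Ighj4 (28.9%) and Ighj1 (9.25%). Ighj4 was above Ighj1 in 12 of 12 libraries (exact sign-flip test over libraries, adjusted over 3 segments p = 0.00146), while its differences from Ighj2 (adjusted p = 0.0608) and Ighj3 (adjusted p = 0.187) did not pass.

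Mean CDR3 length did not separate the groups either. By sequences, Ighj4 CDR3s of control SMO libraries had a mean length of 11.6 residues at the lowest, 11.99 at the median and 12.4 at the highest. Those of LFPRLR SMO libraries had 11.7, 12.003 and 12.3. The difference of 0.0114 residues (interval of the shift -0.328 to 0.303, exact *U* test, p = 1) was far smaller than the spread within either group. By reads it was -0.0287 (interval -0.325 to 0.402, exact p = 0.818). Lengths of 10, 11, 12, 13 and 14 residues held a median of 13.3%, 14.8%, 12.8%, 14.5% and 12.1% of the Ighj4 translations, so no single length dominated. By sequences, a CDR3 of 20 residues made up a median of 0.177%.

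**Figure D3:**
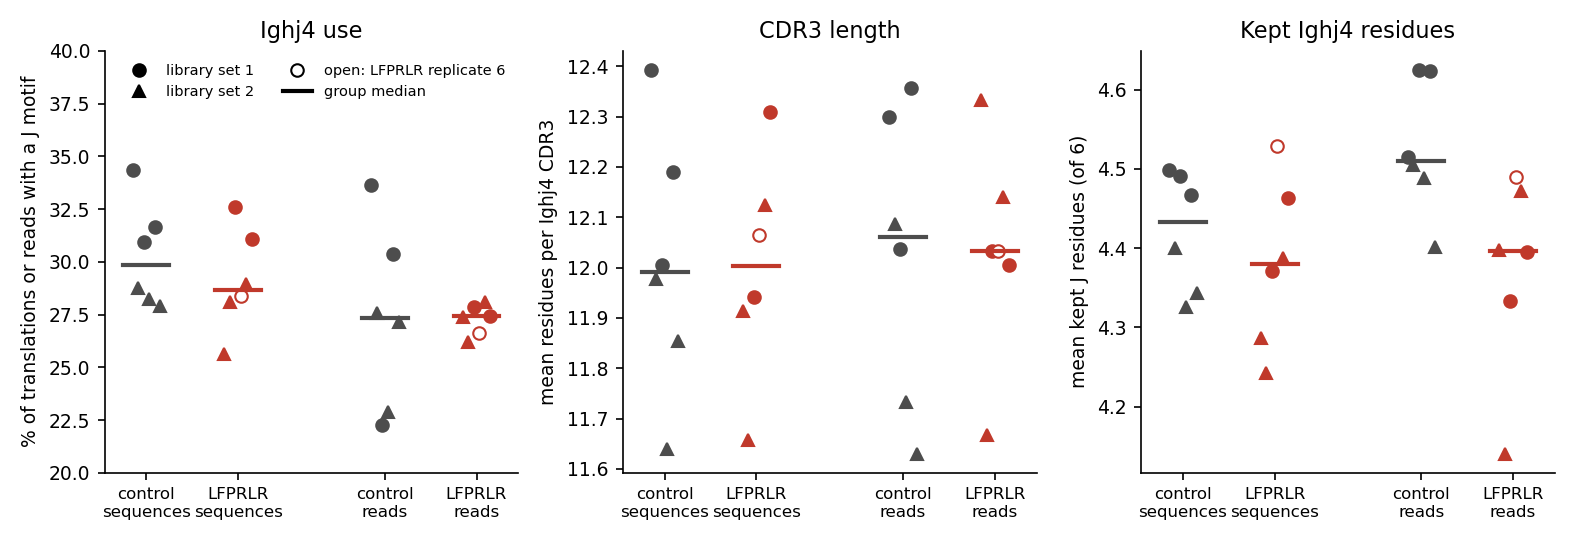
Ighj4 use (percent of translations or reads with a J motif), mean CDR3 length (residues) and mean kept Ighj4 residues (of 6) in each library, by sequences and by reads, for control SMO and LFPRLR SMO, with lines at group medians and marker shapes for the 2 library sets. The groups overlap in every panel, and in kept residues by reads 6 of 6 LFPRLR SMO libraries lie below the control SMO median of 4.51.

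Ighj4 CDR3s were longer than those of Ighj2 and Ighj3, and they kept more J residues. In 12 of 12 libraries their mean length by sequences exceeded that of Ighj1, Ighj2 and Ighj3 together, by a median of 1.31 residues (range 1.15 to 1.66, exact sign-flip test, p = 0.000488, the smallest that 12 libraries allow). By segment, they were 1.70 residues longer than Ighj2 CDR3s and 1.29 longer than Ighj3 CDR3s (exact sign-flip test, adjusted p = 0.000732 for both), and differed by -0.234 from Ighj1 CDR3s (exact p = 0.941). They kept 1.84 residues more than Ighj2 and 1.54 more than Ighj3 CDR3s (exact sign-flip test, adjusted p = 0.000732 for both), segments whose own ends are shorter, and differed by -0.236 from Ighj1 (adjusted exact p = 0.0273). Outside the kept J residues, the V, D and added part of Ighj4 CDR3s was shorter than that of the other segments together in 10 of 12 libraries, by a median difference of -0.12 residues (exact sign-flip test, p = 0.0142). By segment, it was shorter than that of Ighj3 in 12 of 12 libraries (-0.247, exact sign-flip test, adjusted p = 0.00146). It differed by -0.0973 from Ighj2 and by 0.0687 from Ighj1, where Ighj4 was higher in 8 of 12 (adjusted exact p = 0.0527 for both). By reads, against the other segments together, that part differed by 0.0539 and was shorter in 6 of 12 (exact p = 0.268). No treatment difference in either was detected by sequences (exact *U* test of the within-library differences, p = 0.699 for the length and p = 0.31 for the part outside).

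**Figure D4:**
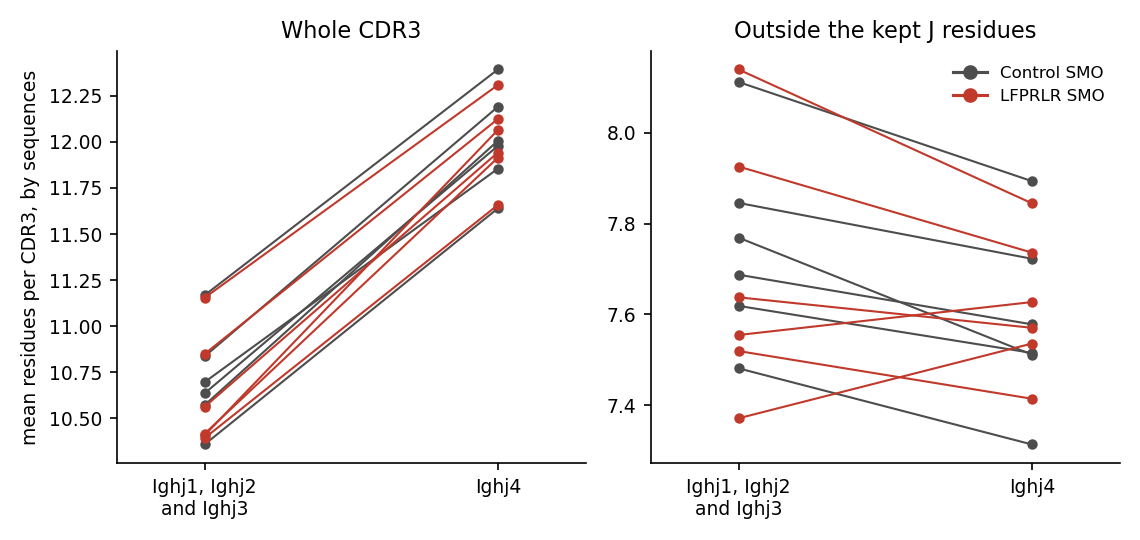
Mean residues per CDR3 by sequences (y axis) of Ighj1, Ighj2 and Ighj3 together and of Ighj4, joined by a line for each of the 12 libraries, for the whole CDR3 on the left and for the residues outside the kept J end on the right. All lines rise on the left, by 1.15 to 1.66 residues, and 10 of 12 fall on the right.

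Within Ighj4, the part outside the J end differed with the trimming. CDR3s that kept 6 residues had a median of 7.33 residues outside, those that kept 5 had 7.46, those that kept 4 had 7.75 and those that kept 3 had 7.62. With 2, 1 and 0 kept residues the medians were 7.90, 8.76 and 8.38, so the order was not steady. The added length did not make up for the loss: the whole CDR3 averaged 13.3 residues with 6 kept and 9.76 with 1 kept. These are descriptions, since the kept and the outside part are read from the same junction and a chance match moves a residue from one to the other.

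Composition showed small differences between the groups in 2 amino acids of Ighj4 CDR3s, aspartate and leucine. Tyrosine (Y), alanine (A), methionine (M) and aspartate (D), the residues that the Ighj4 end encodes, made up most of the CDR3, with tyrosine alone at a median of 23.6% of residues in control SMO libraries by sequences. Across the 20 amino acids of the 4 J segments, 4 of 80 passed after adjustment by sequences (5%), and 2 of the 20 of Ighj4 did, aspartate and leucine. By unadjusted p under 0.05, 13.8% of the 80 passed by sequences, and the same 2 of 20 for Ighj4, against 4 of 20 for Ighj2, 4 for Ighj3 and 1 for Ighj1. The number of unadjusted Ighj4 calls was therefore no higher than the background share, while 2 of the 4 adjusted calls were those of Ighj4.

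Aspartate, an acidic residue that each uncut Ighj4 end supplies, was lower in LFPRLR SMO libraries. It made up 13.004%, 13.1% and 13.3% of Ighj4 CDR3 residues at the lowest, median and highest of the control SMO libraries, and 12.4%, 12.8% and 12.97% in LFPRLR SMO libraries. The groups did not overlap. The difference in medians was -0.268 percentage points (interval of the shift -0.617 to -0.169, exact *U* test, p = 0.00216, the smallest that 6 against 6 allow, adjusted p = 0.0433).

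Leucine, a hydrophobic residue that the Ighj4 end does not encode, was higher. It made up 2.51%, 2.64% and 2.78% of residues in control SMO libraries and 2.87%, 3.01% and 3.79% in LFPRLR SMO libraries, again without overlap. The highest value was that of replicate 6 with 140 translations. The difference was 0.37 percentage points (interval of the shift 0.225 to 1.01, exact p = 0.00216, adjusted p = 0.0433).

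Both differences had the same sign in each library set, at -0.263 and -0.253 for aspartate and 0.388 and 0.353 for leucine, each with 0 overlap and the exact p of 0.1 that 3 against 3 allow. The pairs with shared CDR3s span the sets, which are not independent if a pair came from the same mouse. Leaving out any 1 library gave an exact p of 0.00433, the smallest for 5 against 6, and an adjusted p between 0.0577 and 0.0866, which missed the threshold. With labels permuted within the library sets both exact p-values were 0.005, the smallest that 400 arrangements allow, and the adjusted p was 0.1. With the pairs that share abundant CDR3s averaged, 4 libraries stood against 5, where the smallest possible exact p is 0.0159. The smallest adjusted exact p of any Ighj4 amino acid was then 0.254, so both calls were lost there too. Adjusted over 80 tests, these floors left little room to pass, so the losses do not show weaker differences. Counted once per distinct CDR3, neither passed. Aspartate then had medians of 13.006% and 12.997% (exact p = 0.589) and leucine of 2.67% and 2.72% (exact p = 0.24), so both calls rested on counting each translated variant of a CDR3. Outside the kept J residues, the medians were 8.14% and 7.595% for aspartate and 4.21% and 4.71% for leucine (exact p = 0.00216, adjusted p = 0.0577 for both).

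By reads the same residues led, and 0 of 80 tests passed after adjustment (0%), while 15% had an unadjusted p under 0.05, 4 of 20 for Ighj4. The median share of aspartate was 13.4% under control SMO and 12.3% under LFPRLR SMO (exact *U* test, p = 0.00433, adjusted p = 0.0866), and leucine 2.63% and 3.79% (exact p = 0.026, adjusted p = 0.26). The other 2 were tyrosine, at 23.8% and 22.4% (exact p = 0.026, adjusted p = 0.26), and arginine, at 9.47% and 10.6% (exact p = 0.0411, adjusted p = 0.274). By sequences tyrosine stood at 23.6% and 22.9% (exact p = 0.0649), glycine at 8.67% and 9.09% (exact p = 0.0649) and arginine at 9.47% and 9.92% (exact p = 0.0931). Alanine (15.6% and 15.5%, exact p = 0.485) and methionine (7.602% and 7.63%, exact p = 0.699), both from the Ighj4 end, did not pass.

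**Figure D5:**
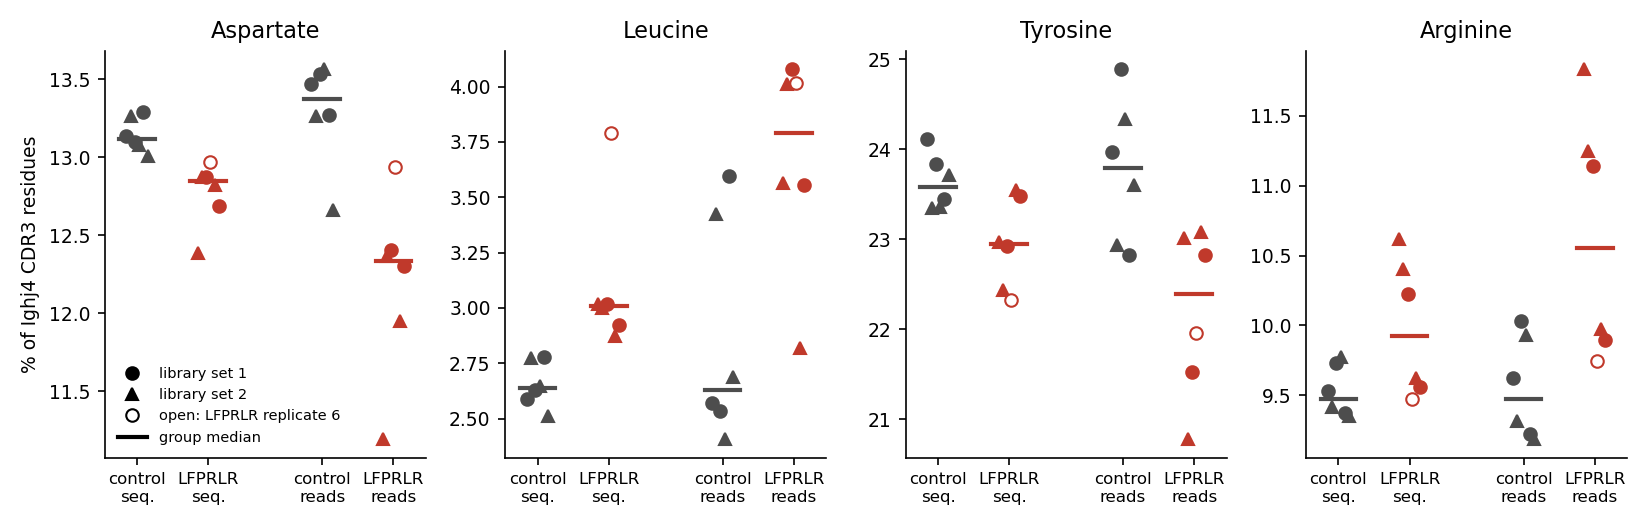
Percent of Ighj4 CDR3 residues (y axis) that are aspartate, leucine, tyrosine or arginine in each library, by sequences and by reads, for control SMO and LFPRLR SMO, with lines at group medians. By sequences the groups do not overlap for aspartate (13.004% or more against at most 12.97%) or leucine (at most 2.78% against 2.87% or more), and by reads they overlap for both.

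A few abundant CDR3s weighed on the values by reads. A single CDR3 carried between 3.16% and 24.8% of all leucine residues of a library by reads. In control SMO replicates 4 and 8, the libraries with 38 shared CDR3s, it was AIDLLLRWNAMDY, shown above with its run of 3 leucines, at 2.17% and 2.33% of their Ighj4 reads. It was found in all 12 libraries, with 2 reads in LFPRLR SMO replicate 6 and at most 0.0313% in the other 9. With the 10 commonest CDR3s of each library left out, the differences by reads were -0.311 for aspartate (exact p = 0.026) and 0.216 for leucine (exact p = 0.0931).

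The direction was shared with other J segments in part. In Ighj2 CDR3s by sequences, aspartate stood at 13.4% and 13.1% (exact *U* test, p = 0.00866) and leucine at 2.91% and 3.30% (exact p = 0.026). In Ighj3 CDR3s aspartate stood at 6.41% and 5.74% (exact p = 0.0411), and in Ighj1 CDR3s the exact p was 0.485 for aspartate and 1 for leucine. Leucine of Ighj3, taken outside the kept residues, stood at 3.34% and 3.56% (exact p = 0.132). The difference between Ighj4 and the other segments within each library, outside the kept residues, showed no detected treatment difference for aspartate (exact *U* test, p = 0.818) or leucine (exact p = 0.0931, adjusted p = 0.31). Of 20 amino acids, 1 passed that test by sequences (5%), glycine, and 0 by reads (0%).

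Glycine outside the kept end is often coded by D segments and added bases. Relative to the other segments it was lower in Ighj4 in each control SMO library, by -0.766 to -0.498 percentage points, and between -0.468 and 0.82 in LFPRLR SMO libraries. The groups did not overlap, and their medians of -0.546 and 0.111 differed by 0.657 (exact *U* test, p = 0.00216, adjusted p = 0.0433). Leaving out any 1 library gave an exact p of 0.00433 and an adjusted p between 0.0289 and 0.0866. By reads the same difference was 1.94 percentage points (exact p = 0.24). By sequences, glycine in Ighj4 itself had medians of 13.7% and 14.3%, control SMO first (exact *U* test, p = 0.0649, adjusted p = 0.325). In Ighj3 the medians were 14.3% and 13.8% (exact p = 0.0152, adjusted p = 0.152), so the difference need not be of Ighj4 alone.

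The part of Ighj4 CDR3s outside the J end was also set against Ighj1, Ighj2 and Ighj3 together. Of 20 amino acids, 11 differed from the other segments across the 12 libraries by sequences (55%, exact sign-flip test, adjusted p under 0.05). Arginine, a basic residue that opens most CDR3s after alanine, was higher by a median of 1.54 percentage points (15.1% against 13.6%, 12 of 12 libraries, exact sign-flip test, adjusted p = 0.00122). Leucine was higher by 0.608 and asparagine by 0.483, each in 12 of 12. Cysteine was higher by 0.06 in 12 of 12 and histidine by 0.315 in 11 of 12. Alanine was lower by a median difference of -0.872, threonine of -0.813, serine of -0.46 and methionine of -0.388, each in 12 of 12 libraries. Tryptophan (-0.284, 9 of 12) and valine (-0.0935, 10 of 12) were lower too. By reads, leucine, alanine and tryptophan missed the threshold (exact sign-flip test, adjusted p = 0.0737 for each). These differences are from the 3 segments pooled, and some are not particular to Ighj4, since Ighj1 had values close to it. In control SMO libraries, threonine outside the kept end had medians of 2.87% in Ighj1 and 2.77% in Ighj4, asparagine of 4.14% and 4.16%, and methionine of 0.398% and 0.411%. Histidine was higher in Ighj1 (1.54%) than in Ighj4 (1.34%). Arginine stood at 14.4% in Ighj1 and 14.9% in Ighj4, against 13.6% in Ighj2 and 12.8% in Ighj3. Alanine was lower in Ighj1 (13.7%) than in Ighj4 (14.1%). For some other residues Ighj1 was not close. Leucine (3.35% against 4.21%) and cysteine (0.215% against 0.288%) were lower in Ighj1 than in Ighj4, and serine was higher (9.44% against 8.31%). In serine Ighj2 was close to Ighj4 (8.24%).

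Further features of the Ighj4 CDR3s were measured, chosen after the data were seen, among 60 tests over the 4 segments of which 10% passed by sequences and 0% by reads. Net charge per CDR3, counted as arginine and lysine minus aspartate and glutamate, by sequences was -0.53 at the control SMO median and -0.422 at the LFPRLR SMO median (exact *U* test, p = 0.026, adjusted p = 0.173). By reads it ran from -0.58 to -0.478 under control SMO and from -0.465 to 0.0671 under LFPRLR SMO, without overlap (medians -0.501 and -0.26, exact p = 0.00216, adjusted p = 0.0649). Leucine residues per CDR3 by sequences rose from 0.318 to 0.36 (adjusted p = 0.0433), and the share of CDR3s with 2 leucines in a row outside the J end rose from 3.63% to 4.18% (exact p = 0.00433, adjusted p = 0.0433). The median net charge by sequences lay higher under LFPRLR SMO in the other segments as well, at -0.39 and -0.305 for Ighj2 and 0.22 and 0.389 for Ighj3 (adjusted exact p = 0.0433 for both) and -0.571 and -0.441 for Ighj1 (adjusted exact p = 0.173). Both leucine measures restate the leucine difference and are not independent of it.

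The opening of the CDR3 did not separate the groups. By sequences, alanine-arginine opened 76.9% of the Ighj4 CDR3s of the median control SMO library and 75.9% of the median LFPRLR SMO library (exact *U* test, p = 0.485). The tyrosine-phenylalanine-cysteine form of the VH anchor preceded 18.3% and 20.3% (exact p = 0.485).

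D segment letters were found to different extents. The residues YDGS stood in a median of 5.83% of the Ighj4 CDR3s of a library by sequences, against 12.7% for Ighj1, 9.27% for Ighj2 and 6.81% for Ighj3, and did not separate the groups (6.13% and 5.66%, exact *U* test, p = 0.394). YGNY stood in 2.72% and 2.73% (exact p = 1). YGSS reached at most 0.194% in any library, with a median of 0. These letters were searched as residues only, and a match is not a D segment call.

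Few Ighj4 CDR3s were common to many libraries. A CDR3 was counted as found in a library from 1 read on. ARSNYYAMDY, for instance, had 217 reads in control SMO replicate 8 and 1 read in control SMO replicate 5. Of 74758 distinct Ighj4 CDR3s, 62152 were found in 1 library only, 12606 in 2 or more and 5 in all 12. Among the last was ARAMDY, with arginine next to the 4 residues AMDY.
ARAMDY, 4 kept residues, 12 libraries: gcaagaGCTATGGACTAC

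In 7 of 12 libraries 1 expanded sequence stood out. The commonest CDR3 held at least 5% of the Ighj4 reads of these libraries, and they are shown to let the expanded sequences be compared with the shared ones above. The commonest CDR3 of LFPRLR SMO replicate 3, with 16 residues and 10.9% of reads, is given by its share alone.
ARDYGNYDYYAMDY, control SMO replicates 5 and 7: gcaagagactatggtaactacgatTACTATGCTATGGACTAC
ARYGNHAMDY, control SMO replicate 9: gcaagatatggtaaccATGCTATGGACTAC
AREGGLGRGNAMDY, LFPRLR SMO replicate 5: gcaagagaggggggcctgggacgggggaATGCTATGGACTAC
ARGGGIRHYAMDY, LFPRLR SMO replicate 7: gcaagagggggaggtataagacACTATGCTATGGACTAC
ARRELNYYVMDY, LFPRLR SMO replicate 8: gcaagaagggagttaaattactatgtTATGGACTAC
Capitals again mark the unbroken Ighj4 bases. ARDYGNYDYYAMDY, with 6 kept residues, held 7.96% (95% Wilson interval 7.65% to 8.27%) of Ighj4 reads in control SMO replicate 5 and 7.005% (6.74% to 7.28%) in replicate 7. ARYGNHAMDY held 7.67%, ARGGGIRHYAMDY 6.92%, ARRELNYYVMDY 6.41% and AREGGLGRGNAMDY 5.79%. Elsewhere they were rarer, with AREGGLGRGNAMDY at 2.91% in LFPRLR SMO replicate 4 and ARYGNHAMDY at 1.38% in control SMO replicate 4 as the largest shares outside the small replicate 6. Of these, the control SMO sequences kept 6 and 4 residues and those of LFPRLR SMO libraries 5, 4 and 3. In ARRELNYYVMDY the kept residues end at a valine in place of the alanine of the Ighj4 end, with both tyrosines ahead of it.

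The 10 commonest CDR3s together held between 6.42% of Ighj4 reads, in control SMO replicate 3, and 29.4%, in LFPRLR SMO replicate 3. In the latter, 48.4% of the Ighj4 reads kept 5 residues, the highest value of that level in any library. ARSNYYAMDY, the most shared CDR3 with 6 kept residues, held at most 0.339% of Ighj4 reads in a library other than LFPRLR SMO replicate 6, where its 1 read was 0.662%.

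Single-residue changes inside the J end were looked for at the methionine. CDR3s in which 2 residues were kept and the match to YYAMDY resumed beyond the methionine position made up a median of 0.618% of Ighj4 translations, which is 7.58% of those counted with 2 kept residues, and did not separate the groups (exact *U* test, p = 0.937). Leucine stood there in a median of 49.7% of them. Over the 13 framework bases that follow the WGQGTSV motif, with sequences of more than 4 mismatches left out, mismatches to the consensus by sequences numbered 2.72 per 1000 bases under control SMO and 2.86 under LFPRLR SMO (exact p = 0.818), and 1.53 and 1.94 by reads (exact p = 0.24). Amplification and sequencing errors are part of these rates.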

How the data were processed

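Members and lists were chosen with earlier results of these data known. For every mouse the authors deposited unique nucleotide sequences and, in a second table, unique translations, each with a whole-number read count that was not normalized. Reads came from paired-end MiSeq sequencing, and the merging and filtering steps are not given in the sources used here. Total counts ran from 140475 to 227202 reads in control SMO and from 627 to 171560 in LFPRLR SMO libraries. A J motif was located in 91.0% to 95.7% of the translations without a stop.

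Libraries were grouped by the treatment given in the sample characteristics. Values per library were computed in Python 3.11.15 (NumPy 2.4.6, SciPy 1.17.1), by sequences (each translation once) and by reads. The group comparison gives the difference in medians, an exact Mann–Whitney *U* test (two-sided, midranks, 924 arrangements, smallest p 0.00216) and a Hodges–Lehmann interval of the shift. J segments were compared within libraries by an exact sign-flip test (4096 patterns). Adjustment was by Benjamini–Hochberg over the 4 segments, or over 80 amino acid tests. Nothing shows that p-values measure more than the spread between these libraries, some of which share abundant CDR3s. Named were the 4 segments, the residues of the Ighj4 end, arginine and the 3 amino acids with the smallest p. CDR3s printed were, under 15 residues, the commonest of a library with at least 5% of Ighj4 reads, those found in most libraries and 1 per number of kept residues. Scripts were tested on simulated data.

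Alternatives were at least 2 reads, distinct CDR3s, 1 mismatch in the kept end, kept bases, shorter J motifs, another denominator, a difference in means, library sets, a paired fit and each library left out. Averaged pairs of libraries, removal of the 10 commonest CDR3s and removal of ends of other segments were added after the data were seen.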

Additional observations from a re-analysis of the deposited data

Results flagged for a closer look

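Methionine by reads made up 7.72% of Ighj4 CDR3 residues in control SMO replicate 3, below the 7.81% to 7.84% of the other control SMO libraries. Aspartate by reads made up 12.7% in control SMO replicate 9, below the 13.3% to 13.6% of the others of its group. Both lay far from the rest of 6 libraries by Dixon's test. In all, 36 groups were tested, 2 stood out, and chance alone gives about 1 in 20. The difference of Ighj4 from the other J segments in glycine outside the kept residues was higher by 0.657 percentage points in LFPRLR SMO than in control SMO libraries by a test of the difference itself (exact Mann–Whitney *U* test, p = 0.00216, adjusted p = 0.0433).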

How the results depend on the processing

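Ighj4 use by sequences and the length difference from the other segments kept their side of the threshold and their direction in all alternatives run. Composition by sequences gave 2 amino acids past adjustment. This count was 4 with at least 2 reads (aspartate and leucine, with arginine and glycine added), and 0 with distinct CDR3s, outside the kept residues, within library sets, with averaged pairs, with the replicate block, and with any 1 library left out (0 to 0), where 2 to 4 amino acids still had an unadjusted exact p under 0.05. By reads it was 0 in all.

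Length by sequences (0.0114) changed sign with at least 2 reads (-0.0525), distinct CDR3s (-0.123), library sets (-0.0332), means (-0.00831) and the replicate block (-0.0637), and ran from -0.0497 to 0.0725 with 1 library left out. Length by reads (-0.0287) changed sign within library sets (0.0699), as means (0.0115) and without the 10 commonest CDR3s (0.0519). Use by reads (0.0548) changed sign within library sets (-1.34), as means (-0.0371), with averaged pairs (-0.647), against all translations without a stop (-0.577) and with the replicate block (-1.36), and ran from -0.148 to 0.257 with 1 library left out. Kept residues by sequences changed sign with distinct CDR3s (0.0194). None of these passed the threshold, and the cause was not tested.

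Kept residues by reads passed within library sets (-0.16, adjusted exact p = 0.03) and without ends of other segments (-0.119, adjusted exact p = 0.0346). With 1 library left out the difference ran from -0.119 to -0.108 and passed in 2 of 12 cases, without control SMO replicate 9 and without LFPRLR SMO replicate 6 (adjusted exact p = 0.0346 for both). It was -0.0745 with 1 mismatch allowed (exact p = 0.699).

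Replicate numbers 3, 4, 5, 7 and 8 occur in both groups but mark different mice. Same-numbered libraries had correlations of -0.29 to 0.183, and 1 of 5 correlated best with its own number. Numbers 4, 5, 7 and 8 lay in the same library set in both groups, and number 3 did not. Whether same-numbered libraries share more than a number was not tested, and 5 pairs are too few to tell. With the replicate block, kept residues by reads differed by -0.228 and use by sequences by -0.564, and 5 pairs cannot give an exact p under 0.0625. Leaving out translations with an X was not run, since 0 had one. LFPRLR SMO replicate 6, with 140 Ighj4 translations, limits what its shares can show.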
